A study of Mus musculus with 3 samples.

Results

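The circadian clock genes were the 10 genes Clock, Arntl, Per1, Per2, Per3, Cry1, Cry2, Nr1d1, Nr1d2 and Dbp, measured here in mouse cerebral cultures exposed to antiepileptic drugs or their vehicle. They were chosen by name, as every probe whose gene name in the scanner files was one of these symbols. This gave 14 of the 55681 probes of the array, for 10 of the 22340 genes that probes could be joined to. Primary cells were dissociated from the cerebrum of C57BL6/J embryos at embryonic day 18 and grown in neurobasal medium with B27 supplement, and RNA was taken after 24 h of treatment that began on day 10 in vitro. A first culture received 1 mM valproate, another received 100 µM lamotrigine and the last received the vehicle DMSO alone. All 3 contained 0.1% DMSO. Valproate is an antiepileptic drug and mood stabiliser that also inhibits histone deacetylases, and lamotrigine, used against epilepsy too, is a blocker of sodium channels. The cultures hold several cell types, and the number of embryos behind each RNA sample was not given in the sources used here.

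Each treatment was represented by 1 array, so every difference below compares a pair of RNA samples, has no replicate check and carries no p-value. All RNA was taken at 1 time after treatment, so no phase, period or amplitude of a rhythm was measured, and the time of day was not given in the sources used here.

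In the mammalian clock, the proteins CLOCK and BMAL1 (the product of Arntl) bind E-boxes as a pair and activate the Per, Cry, Nr1d and Dbp genes. PER and CRY proteins then enter the nucleus and inhibit that pair. The nuclear receptors REV-ERB alpha and beta (Nr1d1 and Nr1d2) repress Arntl through ROR elements, at which the ROR receptors activate it, and the output factor DBP activates genes through D-boxes, at which NFIL3 represses. The master pacemaker lies in the suprachiasmatic nucleus of the hypothalamus, while cells of the cerebrum hold peripheral clocks. Per1 is in addition induced within hours by CREB signalling and by glucocorticoid receptors.

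The probes are 60 nt long and their positions are given on the mm9 build. A probe reads only transcripts that carry its sequence, so where a gene had 2 probes both are described. The last bases are shown for the 4 genes with 2 probes, since their values depend on which probe is read, and for Cry1, which was at the edge of detection.
Per1, probe 1, chr11:68923364-68923423, plus strand: atttgtgtttttgatattgtgtctgttatt
Per1, probe 2, chr11:68919895-68919954, plus strand: ctccttgttaaccctggtctttccccacag
Cry1, chr10:84594731-84594790, minus strand: agatattctgatataaatctcaagagtttt
Cry2, probe 1, chr2:92243807-92243866, minus strand: tgttttataaatgtctgatcctgtctgagt
Cry2, probe 2, chr2:92251417-92251476, minus strand: gccaccatgtctactttaccttctaaaatt
Nr1d2, probe 1, chr14:19036568-19036627, minus strand: tttgcaatataaagtttgctgaatgtaaaa
Nr1d2, probe 2, chr14:19037253-19037312, minus strand: tagttagggttagtatatacatgtatacac
Dbp, probe 1, chr7:52965461-52965520, plus strand: caacacaatcctgAATAAAtcttgagaacc
Dbp, probe 2, chr7:52965322-52965381, plus strand: gaagaacgtcatgatgcagacaaatacatt
The capitals mark AATAAA, the letters of the polyadenylation signal, which lies in the Dbp probe 1. The 2 probes of Dbp start 139 bases apart, those of Nr1d2 685, those of Per1 3469 and those of Cry2 7610. The Cry1 probe is poor in G and C, at 23.3% of its bases, and only 0.64% of the array's probes are at or below that share, against a median of 43.3%. The Nr1d1 probe, chr11:98630526-98631028 on the minus strand, spans 503 genomic bases with its 60 nt and therefore crosses an intron, so that it reads the spliced transcript. Its whole sequence is shown for that reason.
Nr1d1: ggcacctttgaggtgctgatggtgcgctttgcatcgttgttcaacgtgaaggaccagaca
The remaining probes lie at chr5:76641377-76641436 on the minus strand (Clock), chr7:120457261-120457320 on the plus strand (Arntl), chr1:93313046-93313105 on the minus strand (Per2) and chr4:150379256-150379315 on the minus strand (Per3). Whether a probe lies in a coding exon or in an untranslated region was not analysed here.

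Values are given as scaled signal, the processed spot intensity divided by the 75th percentile of its own array and set so that 100 is that percentile. It compares 1 probe between arrays and says nothing of the level of one gene against another. A probe was detected where the scanner software marked it as well above background. Of the 14 probes, 12 were detected on all 3 arrays and 1 on none, and 9 of the 10 genes were detected on all 3. The technical SD quoted after each log2 difference comes from 399 probes printed 10 times on each array. Only those with enough spots well above background were used. It is their median SD within a band of signal, combined over both arrays. In the lowest band, under 25, there were 53 such probes with valproate, 40 with lamotrigine and 34 with DMSO. All signals under 25 thus share 1 SD per array, and spots not well above background are left out of it. The technical SD covers spot-to-spot error within an array and leaves out the spread between cultures. Differences are log2 values, and a gene was called where it was detected on both arrays and at least 2-fold apart.

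The arrays lay on 1 slide and were alike in quality: 52.9% of the spots were well above background with valproate, 51.6% with lamotrigine and 49.6% with DMSO, and none was saturated. Markers of neurons, astrocytes and oligodendrocyte lineage cells were all detected on the 3 arrays. Their summed scaled signal for 6 neuronal genes was 12520 with valproate, 15274 with lamotrigine and 17513 with DMSO, and for 6 astrocyte genes it was 10434 with valproate, 14287 with lamotrigine and 14510 with DMSO. For 6 oligodendrocyte lineage genes it was 1111 with valproate, 1227 with lamotrigine and 1467 with DMSO. For 5 microglial genes, of which Cx3cr1 and P2ry12 were not detected on any array, it was 1543 with valproate, 1514 with lamotrigine and 1376 with DMSO. All 3 of the first sums were thus lowest with valproate, but single genes of these lists went both ways: 4 of 6 neuronal, 5 of 6 astrocyte and 4 of 6 oligodendrocyte lineage genes were below DMSO with valproate, while Snap25 (0.17), Nefl (0.15), Gfap (0.06), Olig2 (0.22) and Mbp (0.60) were above it. The largest falls from DMSO with valproate in these 3 lists were those of Tubb3 (-0.94), Aqp4 (-1.62) and Gpr17 (-3.75). A sum is weighted to its brightest probes. Tubb3 had 3996 with valproate and 7649 with DMSO, and Itgam alone gave 1438 of the microglial sum with valproate. The sums are for the main scaling, and the spike-in scaling described below would lessen the falls with valproate. For 4 inhibitory neuron genes the sum was 5206 with valproate, 4816 with lamotrigine and 6214 with DMSO. The part of cell makeup in the values below was not tested. In such mixed cultures fewer cells of a type and less RNA per cell cannot be told apart. Of 6 genes listed as markers of suprachiasmatic neurons, Avp, Six6 and Nms were not detected on any array and Lhx1 was detected with lamotrigine only. Vip and Prok2 were detected on all 3, and whether their signal came from such neurons was not tested.

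None of the clock genes was called in any comparison. With valproate, 9 genes were detected on both arrays and their differences from DMSO ran from -0.48 to 0.32, with a median of -0.22, against a median of -0.08 over all genes. Of all 14345 genes measured in that comparison 3.51% were called, and 12.2% were at least 1.5-fold apart, which no clock gene was. With lamotrigine the 9 differences ran from -0.21 to 0.38 around a median of -0.07, and 0.16% of all genes were called and 1.87% were at least 1.5-fold apart. Between valproate and lamotrigine the range was -0.41 to 0.29 and the median -0.20, where 3.75% of all genes were called. The comparisons with DMSO share the DMSO array, and those with valproate share the valproate array.

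**Figure D1:**
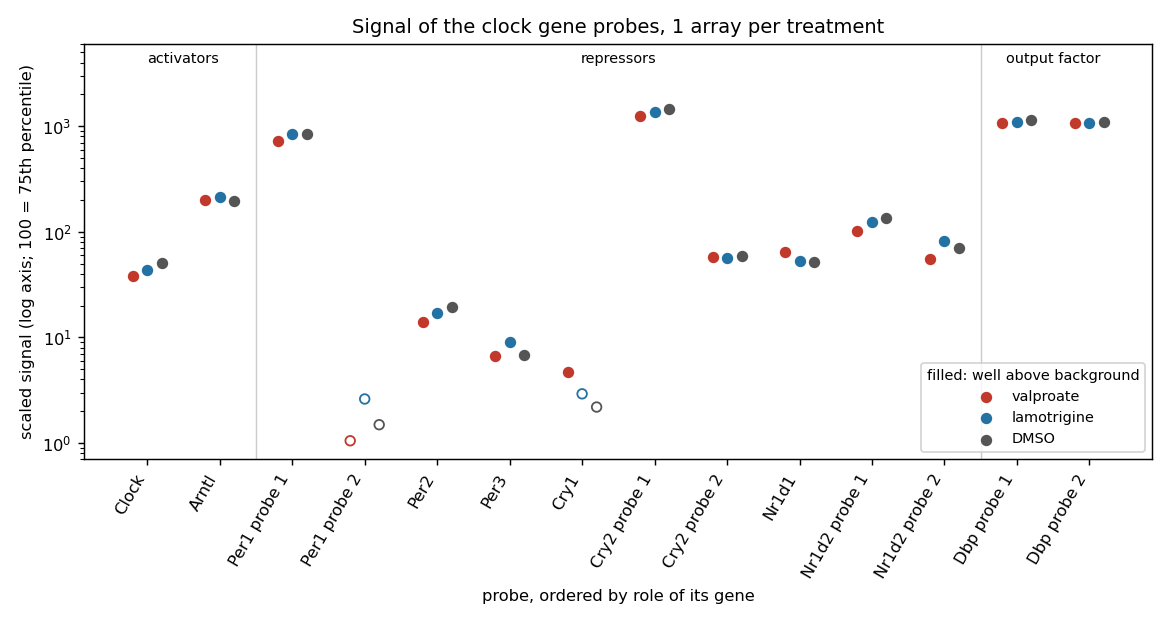
Scaled signal (log scale, 100 is the 75th percentile of an array) of each probe of the 10 clock genes on the valproate, lamotrigine and DMSO arrays, 1 point per array, with open points where the probe was not well above background. The 3 points of a probe lie close together for the probes detected on all arrays, and Cry1 and Per1 probe 2 are at the background.

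Neither activator was called. Clock, the DNA-binding partner of BMAL1, had a scaled signal of 38.3 with valproate, 43.9 with lamotrigine and 50.7 with DMSO. Valproate thus gave the lowest value and DMSO the highest. The difference from DMSO was -0.41 ± 0.11 with valproate (1.33-fold lower) and -0.21 ± 0.12 with lamotrigine, which is 3.5 and 1.8 technical SDs. Of all genes, 12.8% had a lower value against DMSO with valproate. Arntl, which encodes BMAL1 and is itself controlled by REV-ERB and ROR proteins, had 199 with valproate, 215 with lamotrigine and 194 with DMSO. Its differences were 0.04 ± 0.08 with valproate and 0.15 ± 0.09 with lamotrigine, both within 2 technical SDs. The difference of Arntl minus that of Clock, a quantity that scaling a whole array does not touch, was 0.45 ± 0.14 with valproate and 0.35 ± 0.14 with lamotrigine against DMSO, and 0.09 for valproate against lamotrigine.

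Among the Period genes, whose products hold CLOCK and BMAL1 in check, none rose or fell past the call. Per1, the member most readily induced by cell signalling, had 721 with valproate, 840 with lamotrigine and 838 with DMSO. The lamotrigine and DMSO values coincided, and the valproate value was lower, at -0.22 ± 0.06 against each of them. The probe 2 of Per1, upstream of probe 1, had 1.05 with valproate, 2.61 with lamotrigine and 1.49 with DMSO and was well above background on no array. Per2 had 13.9 with valproate, 17.1 with lamotrigine and 19.4 with DMSO, the widest range among the clock genes detected on all arrays when each is read by its brightest probe. Its difference from DMSO was -0.48 ± 0.24 with valproate (1.39-fold lower), 2.0 technical SDs at this weak signal, and -0.18 ± 0.24 with lamotrigine. Per3 had 6.72 with valproate, 8.96 with lamotrigine and 6.86 with DMSO, close to the detection floors of 3.88 with valproate, 4.63 with lamotrigine and 5.29 with DMSO. Lamotrigine gave the highest Per3 value, 0.38 ± 0.24 above DMSO, and 96.3% of all genes had a smaller value in that comparison, while valproate differed from DMSO by -0.03 ± 0.24.

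The genes of both signalling routes to Per1 were mixed. Of all genes, 60.7% were below DMSO with valproate and 3.51% were called in that comparison. Of 9 CREB and neuronal activity targets, 5 were below DMSO with valproate and the median was -0.35 (-0.01 under the spike-in scaling described below). Npas4, an activity-dependent transcription factor of neurons, was the 1 called: it had 32.2 with valproate, 42.7 with lamotrigine and 68.8 with DMSO, or -1.10 ± 0.11 (2.14-fold lower) with valproate and -0.69 ± 0.12 with lamotrigine. The immediate early gene Egr1 went the other way with valproate, at 362 against 201 with lamotrigine and 225 with DMSO, 0.69 ± 0.08 above DMSO. The orphan receptor gene Nr4a1 had 174 with valproate, 205 with lamotrigine and 254 with DMSO, -0.54 ± 0.08 with valproate. Of 8 glucocorticoid receptor targets, 6 were below DMSO with valproate, with a median of -0.18, and 2 under spike-in scaling, with a median of 0.16. The sulfotransferase gene Sult1a1 was the 1 called, with 59.5 with valproate, 147 with lamotrigine and 146 with DMSO, a difference of -1.30 with valproate, and its other probe gave -1.14. The receptor's feedback gene Fkbp5 was at 328 with valproate, 203 with lamotrigine and 233 with DMSO, 0.49 above DMSO with valproate, whereas Tsc22d3 had 481 with valproate, 668 with lamotrigine and 625 with DMSO, -0.38 with valproate. Neither list had a gene called with lamotrigine against DMSO. For valproate against DMSO, Npas4 and Sult1a1 missed the call with normexp background correction (-0.83 and -0.95) and with spike-in scaling (-0.75 and -0.96), under which Egr1 passed it at 1.03.

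Of the cryptochromes, which block CLOCK and BMAL1 most strongly, Cry2 was bright and Cry1 was at the edge of detection. Cry2 probe 1 had 1253 with valproate, 1376 with lamotrigine and 1467 with DMSO, or -0.23 ± 0.06 with valproate and -0.09 ± 0.07 with lamotrigine. Its probe 2, 7610 bases away, had 57.5 with valproate, 55.9 with lamotrigine and 59.2 with DMSO, differences of -0.04 ± 0.11 and -0.08 ± 0.12 from DMSO. The valproate value of Cry2 was thus 3.6 technical SDs from DMSO at one probe and 0.4 at the other. Cry1 had 4.69 with valproate, where it was detected, and 2.92 with lamotrigine and 2.19 with DMSO, where it was not well above background. Its valproate value lay below the DMSO detection floor of 5.29, so that no fold against DMSO is given. Against lamotrigine, its bound was 0.02.

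The REV-ERB genes split with valproate. Nr1d1 had 64.7 with valproate, 52.9 with lamotrigine and 51.9 with DMSO, so valproate stood apart from the other 2 arrays. Its differences were 0.32 ± 0.11 (1.25-fold higher) with valproate and 0.03 ± 0.12 with lamotrigine. Nr1d2 probe 1 had 101 with valproate, 124 with lamotrigine and 135 with DMSO, or -0.41 ± 0.08 (1.33-fold lower) with valproate, 5.3 technical SDs and the most of any clock gene, and -0.12 ± 0.09 with lamotrigine. Nr1d2 probe 2 had 55.8 with valproate, 81.2 with lamotrigine and 70.5 with DMSO. Both Nr1d2 probes were thus lowest with valproate, at -0.41 and -0.34 against DMSO, while for lamotrigine they differed in sign, at -0.12 ± 0.09 and 0.20 ± 0.12. Nr1d1 minus Nr1d2 was 0.73 ± 0.14 with valproate and 0.14 with lamotrigine.

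Dbp, the output factor, was within 2 technical SDs of DMSO at both probes with each drug. Probe 1 had 1068 with valproate, 1099 with lamotrigine and 1151 with DMSO, and probe 2 had 1081 with valproate, 1074 with lamotrigine and 1090 with DMSO. The differences from DMSO were -0.11 ± 0.06 and -0.01 ± 0.06 with valproate at the 2 probes and -0.07 ± 0.07 and -0.02 ± 0.07 with lamotrigine.

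**Figure D2:**
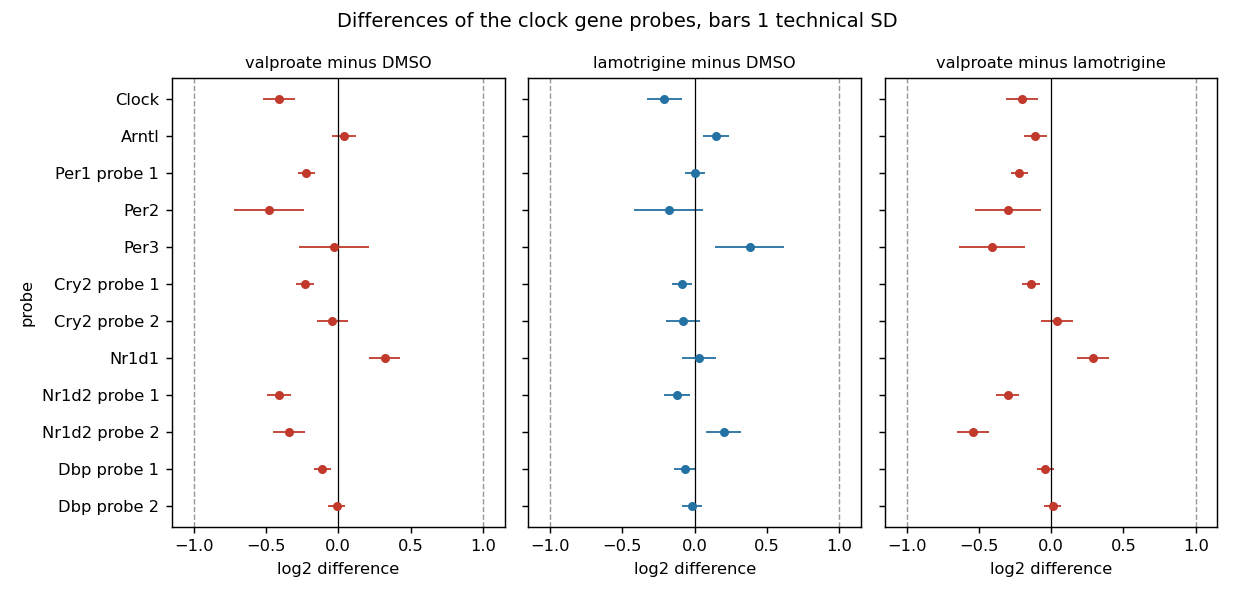
Log2 difference of each clock gene probe detected on both arrays for valproate minus DMSO, lamotrigine minus DMSO and valproate minus lamotrigine, with bars of 1 technical SD and dashed lines at 2-fold. Clock, Per2 and Nr1d2 lie lowest for valproate minus DMSO and Nr1d1 highest, and all values lie inside the 2-fold lines.

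Set by role, the 2 activators had a median difference from DMSO of -0.18 with valproate and -0.03 with lamotrigine. The 6 repressors measured had -0.22 with valproate, with 5 of the 6 below 0, and -0.04 with lamotrigine, with 3 below 0. Dbp had -0.11 with valproate and -0.07 with lamotrigine. Between valproate and lamotrigine, the medians were -0.15 for the activators, -0.26 for the repressors and -0.04 for Dbp. The medians of activators and repressors thus were below 0 in the 3 comparisons, as was the median of all genes. That median was -0.08 for valproate and -0.05 for lamotrigine against DMSO, and -0.03 between the drugs. The activator median is the midpoint of Clock and Arntl, which differed in sign against DMSO with each drug. Single differences with valproate ran from -0.41 to 0.04 for the activators and from -0.48 to 0.32 for the repressors.

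Taken over the 9 genes, 7 lay below DMSO with valproate, where 60.7% of all genes did, and 5 lay below DMSO with lamotrigine, where 60.2% of all genes did. Between valproate and lamotrigine 8 of 9 were lower with valproate, where 54.7% of all genes were. More than 2 technical SDs separated valproate from DMSO for 5 of the 9 genes (Clock, Per1, Cry2, Nr1d1 and Nr1d2), against 55.8% of all genes. They separated valproate from lamotrigine for 4 of 9, against 51.3% of all genes: Per1 at -0.22 ± 0.06, Cry2 at -0.14 ± 0.06, Nr1d1 at 0.29 ± 0.11 and Nr1d2 at -0.30 ± 0.08. For lamotrigine against DMSO it was 0 of 9, against 31.2% of all genes.

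**Figure D3:**
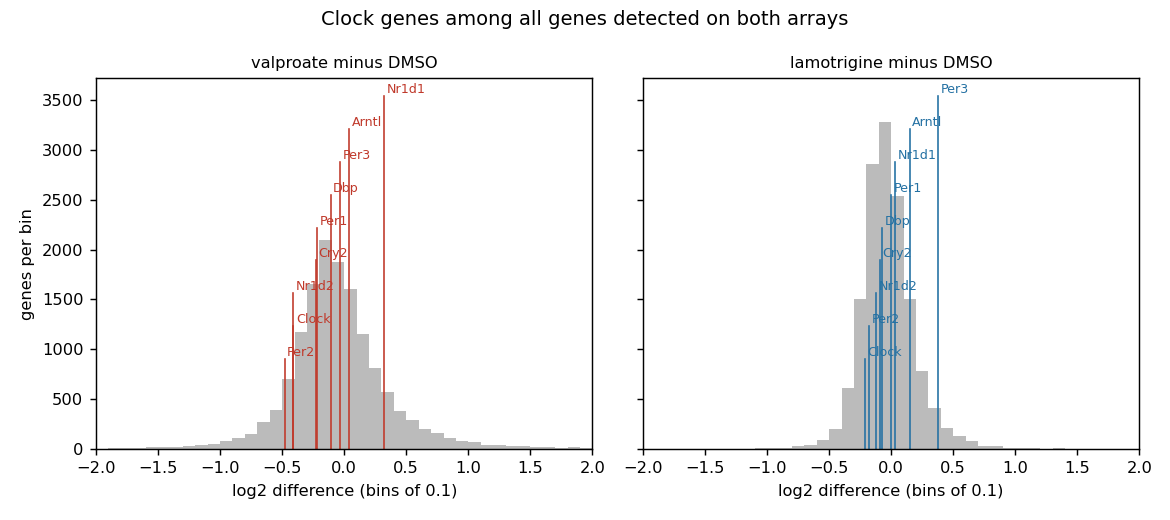
Number of genes per bin of log2 difference, for valproate minus DMSO and lamotrigine minus DMSO, over all genes detected on both arrays, with a line at each clock gene (line height has no meaning). The clock genes run from -0.48 to 0.32 for valproate against DMSO and from -0.21 to 0.38 for lamotrigine against DMSO.

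These signs depend on how arrays are scaled. Scaling on spike-in control probes raised the median of all genes by 0.34 for valproate and 0.20 for lamotrigine against DMSO. Under it the clock median for valproate against DMSO became 0.13, with Per1 at 0.13, Per3 at 0.31, Cry2 at 0.12 and Dbp at 0.24, and 3 of 9 genes were below 0. Relative to the median of all genes the count was 6 of 9. Spike-in scaling shifts every gene of an array alike, so it cannot change this count. With the mean of detected probes 5 of 9 were below that median. Clock, Per2 and Nr1d2 stayed below DMSO and Nr1d1 above it with valproate in each alternative that compares valproate with DMSO. Clock lay between -0.41 and -0.06, Per2 between -0.48 and -0.13, Nr1d2 between -0.41 and -0.07 and Nr1d1 between 0.18 and 0.66. The smallest differences of Clock, Per2 and Nr1d2 were thus within their technical SDs of 0.11, 0.24 and 0.08.

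The wider clock pathway, 30 further genes of which 27 were detected on all arrays, held larger differences than the 10 genes above. With valproate, 28 were measured against DMSO, none was called, and 6 (21.4%) were at least 1.5-fold apart, 2 higher and 4 lower, where 6.24% of all genes were that much higher and 5.95% that much lower. Their median was -0.19, and 0.15 under spike-in scaling. With lamotrigine none of 27 was 1.5-fold apart and the median was -0.14, and 0.06 under spike-in scaling. Between valproate and lamotrigine 1 of 28 was called, where 3.75% of all genes were, so the count is near that share.

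Among the other activators, 3 of the 4 measured were higher with valproate than with DMSO, with a median of 0.47. Of all genes, 60.7% were lower in that comparison. Rora, whose product activates Arntl at the same elements at which REV-ERB represses it, had 66.3 with valproate, 54.0 with lamotrigine and 39.3 with DMSO. DMSO gave the lowest value, and the differences were 0.75 ± 0.11 (1.68-fold higher) with valproate and 0.46 with lamotrigine. A weaker Rora probe had 4.75 with valproate, 5.74 with lamotrigine and 1.89 with DMSO, the DMSO value not well above background, which gives a bound of 0.00 for valproate and 0.12 for lamotrigine. Arntl2, the BMAL1 paralogue, had 62.7 with valproate, 45.4 with lamotrigine and 46.4 with DMSO, 0.44 ± 0.11 above DMSO with valproate. Npas2, the CLOCK paralogue of the forebrain, had 3.23 with valproate, 1.72 with lamotrigine and 1.64 with DMSO and was well above background on no array.

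Among the other repressors, 4 of 5 lay below DMSO with valproate, where 60.7% of all genes did, and their median was -0.54. Under spike-in scaling 3 of 5 did, with a median of -0.20. Bhlhe41, which encodes the E-box repressor DEC2, had 9.1 with valproate, 17.9 with lamotrigine and 16.6 with DMSO, and its paralogue Bhlhe40 (DEC1) had 55.4 with valproate, 70.5 with lamotrigine and 83.9 with DMSO. Both were lowest with valproate, Bhlhe41 at -0.87 ± 0.24 (1.83-fold lower) and Bhlhe40 at -0.60 ± 0.11 (1.51-fold lower) against DMSO. The other Bhlhe41 probe was well above background with lamotrigine and DMSO and not with valproate, which bounds it at -1.21 against DMSO. Nfil3, the D-box repressor, had 187 with valproate, 264 with lamotrigine and 272 with DMSO, -0.54 ± 0.08 with valproate and -0.05 with lamotrigine.

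Ciart, an E-box repressor that the array lists as Gm129, was the gene of the pathway that stood apart with lamotrigine. It had 9.41 with valproate, 3.90 with lamotrigine, where it was not well above background, and 11.3 with DMSO. It was therefore at least 2.45-fold lower with lamotrigine than with DMSO and at least 2.03-fold higher with valproate than with lamotrigine. Such bounds of 2-fold or more were reached by 5.87% of the genes detected on 1 array only in the comparison of lamotrigine with DMSO, by 17.6% in that of valproate with DMSO and by 23.6% in that of valproate with lamotrigine. With normexp background correction the Ciart bounds were -0.49 and 0.23.

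Among the output genes, Wee1, the cell cycle kinase gene driven by E-boxes in liver, had 102 with valproate, 64.5 with lamotrigine and 67.6 with DMSO, 0.59 ± 0.10 (1.51-fold higher) with valproate. The PAR bZIP relatives of Dbp differed in sign. Tef had 4328 with valproate, 4869 with lamotrigine and 5356 with DMSO, -0.31 with valproate, and Hlf had 162 with valproate, 122 with lamotrigine and 138 with DMSO, 0.23 with valproate. Under spike-in scaling Tef was at 0.04.

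Of the enzymes that modify PER and CRY proteins, or their target subunits, all 13 detected on both arrays lay below DMSO with valproate, between -0.83 and -0.01 with a median of -0.38, and with lamotrigine all 13 lay between -0.42 and -0.02 with a median of -0.18. Of all genes, 60.7% lay below DMSO with valproate and 60.2% with lamotrigine. Under spike-in scaling 8 of the 13 modifiers were below 0 for valproate and 4 of 13 for lamotrigine. With quantile normalization these counts were 11 and 11, and with the mean of detected probes 11 and 9. The sign within this group thus depends on the gene, the scaling and the probe. Against DMSO, 11 of 13 were below the median of all genes with each drug, a count that spike-in scaling cannot change. With the mean of detected probes, 10 of 13 were below it with valproate and 9 of 13 with lamotrigine. Sirt1, the deacetylase reported to act on BMAL1 and PER2, had 78.1 with valproate, 112 with lamotrigine and 139 with DMSO, -0.83 ± 0.10 (1.78-fold lower) with valproate. Csnk1a1, a casein kinase reported to phosphorylate PER proteins, had 681 with valproate, 864 with lamotrigine and 963 with DMSO. This was -0.50 with valproate, and its other probe gave -0.16. The casein kinases Csnk1d and Csnk1e of the same list fell less, at -0.19 and -0.38 with valproate. The other Csnk1d probe gave 0.02 and those of Csnk1e gave -0.13 and -0.08.

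Fbxl21, a ubiquitin ligase subunit that acts on CRY, had the widest difference of the pathway. It had 19.3 with valproate, 5.86 with lamotrigine and 4.59 with DMSO, where it was not well above background. It was at least 3.66-fold higher with valproate than with DMSO. Against lamotrigine it was 3.3-fold higher with valproate, the call among the 28, where 3.75% of all genes were called. Its other probe had 6.79 with valproate and was not well above background with lamotrigine or DMSO, with a bound of 0.36 against DMSO. With normexp background correction the bound of the first probe was 0.67, and its difference from lamotrigine was 0.68 and no longer called. Among the modifiers detected on 1 array or both, Fbxl21 was the 1 above DMSO with valproate. This holds for the main scaling with each gene read by its brightest probe.

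**Figure D4:**
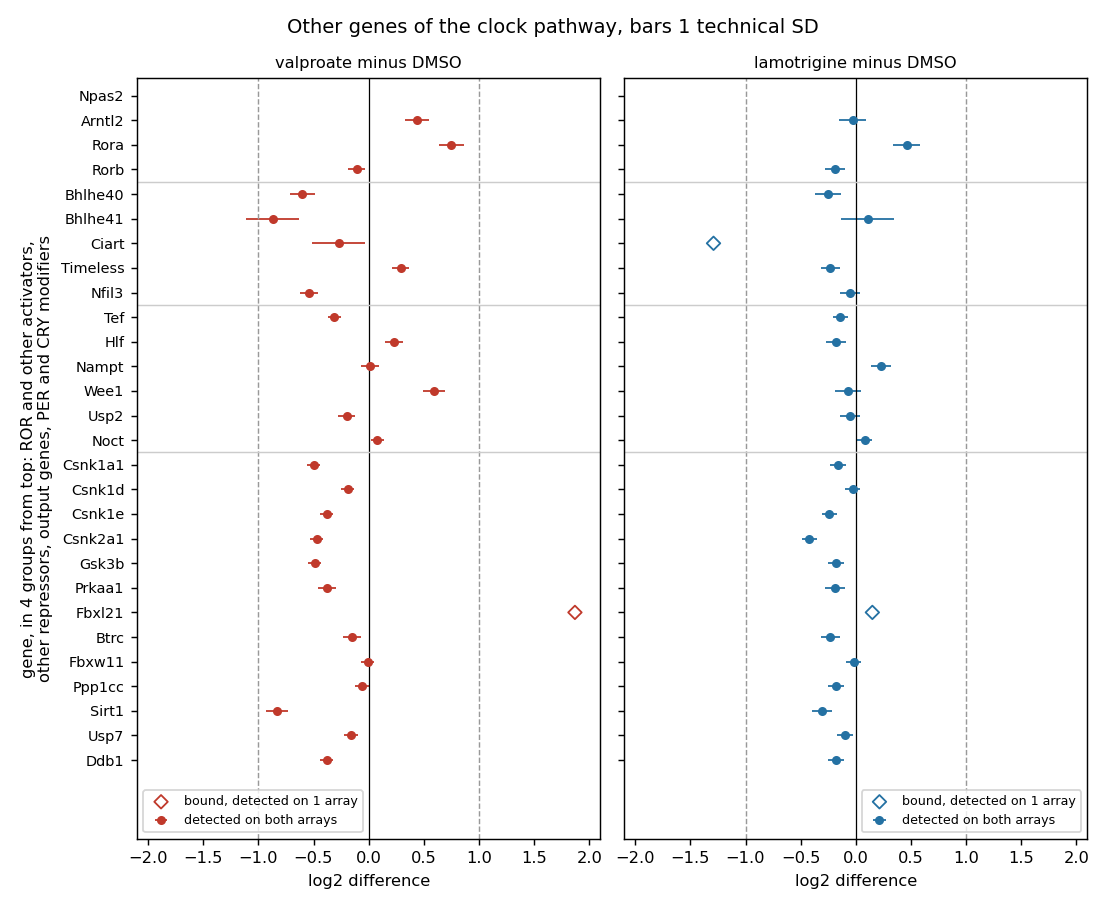
Log2 difference from DMSO of 28 of the 30 further genes of the clock pathway, with valproate and with lamotrigine, in 4 groups, bars 1 technical SD and diamonds bounds for genes detected on 1 array. With valproate the PER and CRY modifiers shown lie left of 0 apart from Fbxl21, and Rora, Arntl2 and Wee1 lie to the right. The side of the modifiers does not hold for all of them under spike-in scaling or with the mean of detected probes.

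The letters through which these proteins act were sought in the RefSeq promoter windows of build GRCm38.p6, 250 bases before to 50 after a gene's start, on both strands. Of the 10 genes 9 had a window, 13 windows in all, and Per2 is named only. The E-box CACGTG was found in 2 of the 13 windows (Cry1 and Per1), where 7.15% of all 32851 windows hold it. The E-prime box CACGTT was found in 3 of the 13 (Cry1, Cry2 and Nr1d1), where 4.68% do. The D-box, TTATGTAA or TTACGTAA, was found for Per3 (1.06% of windows) and the ROR element TAGGTCA for Arntl (2.61%). The CRE TGACGTCA was found for none (1.79%), and its shorter form TGACG, which every CRE contains, in 4 of the 13 windows, from 3 genes (20.81%). Among 23 further pathway genes with a window, the E-box was found for 4 (Ciart, Bhlhe41, Sirt1 and Tef), and Ciart held 3 of them. A match is a description of letters, and a window without one says only that the letters are not within it.

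The 250 bases before the start are shown for 3 clock genes with such letters and for Ciart and Bhlhe41, the E-box repressors with the lowest values with lamotrigine and with valproate. Capitals mark the E-box, the E-prime box or the D-box.
Per1, chr11:69098699-69098948, plus strand: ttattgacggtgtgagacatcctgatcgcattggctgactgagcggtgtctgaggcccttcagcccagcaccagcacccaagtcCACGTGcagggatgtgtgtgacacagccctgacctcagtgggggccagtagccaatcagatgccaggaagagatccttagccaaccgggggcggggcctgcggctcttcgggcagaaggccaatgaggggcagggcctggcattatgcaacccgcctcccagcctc
Cry1, chr10:85185055-85185304, minus strand: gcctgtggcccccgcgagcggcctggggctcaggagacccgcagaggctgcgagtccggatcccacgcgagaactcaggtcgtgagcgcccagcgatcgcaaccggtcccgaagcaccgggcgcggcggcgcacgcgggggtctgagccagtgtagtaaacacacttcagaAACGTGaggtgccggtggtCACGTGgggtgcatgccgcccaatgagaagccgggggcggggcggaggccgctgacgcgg
Per3, chr4:151044666-151044915, minus strand: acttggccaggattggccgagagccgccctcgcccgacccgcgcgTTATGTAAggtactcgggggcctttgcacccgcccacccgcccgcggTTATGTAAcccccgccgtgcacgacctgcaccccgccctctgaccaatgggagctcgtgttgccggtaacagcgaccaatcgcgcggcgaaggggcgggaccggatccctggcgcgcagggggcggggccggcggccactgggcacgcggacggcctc
Ciart, chr3:95882229-95882478, minus strand: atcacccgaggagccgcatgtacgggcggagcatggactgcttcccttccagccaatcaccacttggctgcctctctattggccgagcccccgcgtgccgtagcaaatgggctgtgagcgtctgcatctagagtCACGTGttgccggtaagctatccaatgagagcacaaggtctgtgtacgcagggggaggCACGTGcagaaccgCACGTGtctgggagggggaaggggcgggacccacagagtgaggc
Bhlhe41, chr6:145865421-145865670, minus strand: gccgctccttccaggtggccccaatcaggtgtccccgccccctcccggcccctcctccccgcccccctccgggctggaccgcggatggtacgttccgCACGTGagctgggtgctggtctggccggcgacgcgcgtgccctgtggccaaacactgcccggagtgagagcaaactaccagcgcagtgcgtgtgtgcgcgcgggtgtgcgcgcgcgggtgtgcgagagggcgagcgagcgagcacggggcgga
The E-box of Per1 begins 166 bases before the start, that of Cry1 60 and that of Bhlhe41 153, and those of Ciart 116, 58 and 44. The D-boxes of Per3 begin 205 and 158 bases before it. Genes with the E-box thus include Per1, within 1.5-fold in the 3 comparisons, and Bhlhe41, the lowest of the further genes with valproate against DMSO. Ciart, the lowest with lamotrigine against DMSO, has only a bound there. The others were Cry1, at the edge of detection, Sirt1 (-0.83 with valproate and -0.31 with lamotrigine) and Tef (-0.31 and -0.14). A link between the E-box and these differences was not tested.

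**Figure D5:**
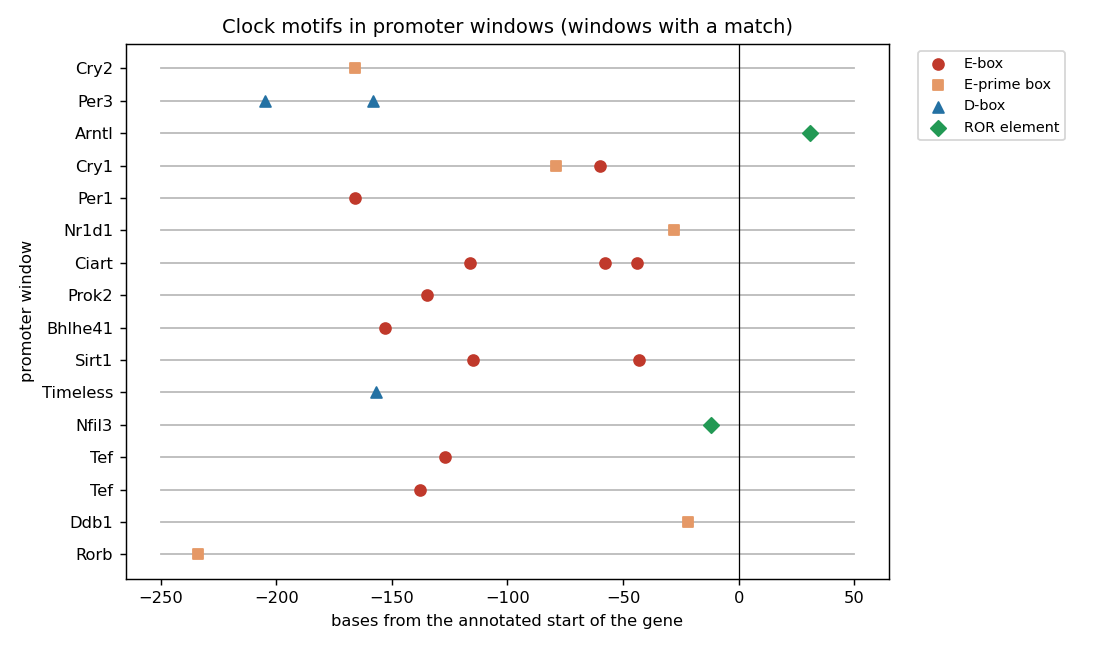
Positions of the E-box, E-prime box, D-box and ROR element letters in the promoter windows that hold them, for clock genes, further genes of the pathway and Prok2, in bases from the annotated start of the gene, 1 mark per match. Ciart has 3 E-boxes within 116 bases of its start and Per3 has 2 D-boxes.

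The pattern of Per2 over the 3 arrays, the widest among the clock genes detected on all of them when each is read by its brightest probe, was set beside that of 14248 genes by the distance between their pairs of differences from DMSO. The nearest were Ikbkg, at a distance of 0.0039 in log2, Lipt2 (0.0041), Tmem223 (0.0065), Bclaf1 (0.0092) and Trappc4 (0.0093). With 3 arrays such likeness is common, and 110 genes lay within 0.05 of Per2. Each Per2 difference from DMSO had a technical SD of 0.24, far above these distances, so the order of the nearest genes carries no weight.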

How the data were processed

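Gene expression was measured in 3 RNA samples, 1 array per treatment, on Agilent arrays labelled with 1 dye. Per the file headers, spot intensity was read with Feature Extraction 10.7.1.1, which subtracts background within an array and does not normalize between arrays, and probes were placed on mm9. A deposited table of intensity values from the authors has sorted columns that are equal within 0.0312%, and it was used as an alternative. How it was made was not given in the sources used here.

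Levels were the log2 of the processed intensity minus that of the 75th percentile of the array. Spots of 1 probe were averaged, and a gene was read by its probe with the highest mean. Where a gene was detected on 1 array only, the detection floor stood in for the other value, which gives a bound. With 1 array per treatment no test was possible, and so few arrays limit the precision. Of the 14 clock gene accessions in the files, 11 carried the same symbol in RefSeq. Those listed for Per1 probe 2, Cry2 probe 2 and Nr1d2 probe 1, the probe by which Nr1d2 was read, had no symbol there.

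The text names all 10 clock genes. Of each further group it names the genes called and the 3 with the largest difference of valproate from DMSO, and of Per2 the 5 nearest genes. Of the further genes, 2 are counted but not reported by name here. Csnk1a1, Csnk1d, Csnk1e, Ciart and Npas2 were added after their values were seen. The genes and lists were chosen with earlier results of these data known.

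Alternatives were quantile normalization, median centring, scaling on 6 of 10 spike-in probes, normexp (offset 50) for the background (limma 3.58.1, R 4.3.3), the deposited table, other detection filters, the mean of a gene's probes, kept outlier spots, folds of 1.5 and 3, and the lamotrigine array as control. Counts were made with Python 3.11.15 and tested on simulated data.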

Additional observations from a re-analysis of the deposited data

How the results depend on the processing

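In all 12 alternatives were run, one at a time, of which each difference has values under 8 to 10 and each count under at least 11. Of 133 recomputed counts, 101 were within 1.5 times the count reported and 32 were not, and of 1558 recomputed differences 299 moved by more than the technical SD and 0 called ones changed sign. The count of clock genes called was 0 throughout, except 1 for valproate against DMSO with no detection filter, which was Cry1. For the 30 further genes, the count for valproate against DMSO was 1 with spike-in scaling, 1 with no detection filter, 2 with the mean of detected probes and 6 at 1.5-fold, against 0. For lamotrigine against DMSO it was 1 with no detection filter and 1 with the mean of detected probes, against 0. For valproate against lamotrigine it was 0 with normexp, 0 for genes detected on all arrays, 2 with no detection filter and 3 at 1.5-fold, against 1. For the CREB and glucocorticoid receptor targets, the count for valproate against DMSO was 1 with spike-in scaling, 0 with normexp and 0 at 3-fold, against 2. For lamotrigine against DMSO it was 1 at 1.5-fold, against 0, and for valproate against lamotrigine it was 0 with normexp, 5 at 1.5-fold and 0 at 3-fold, against 1. Over all genes, the count for valproate against DMSO was 810 with spike-in scaling, 191 with normexp, 1959 with no detection filter, 1749 at 1.5-fold and 109 at 3-fold, against 503. For lamotrigine against DMSO it was 47 with spike-in scaling, 4 with normexp, 1161 with no detection filter, 268 at 1.5-fold and 2 at 3-fold, against 23. For valproate against lamotrigine it was 221 with normexp, 2037 with no detection filter, 1747 at 1.5-fold and 118 at 3-fold, against 546. Fewer or more genes pass by construction with another fold or filter, and for the other settings the cause was not tested. With valproate, the sign of Dbp against DMSO also turned with normexp (0.04). Between valproate and lamotrigine, spike-in scaling turned the signs of Arntl (0.04), Cry2 (0.01) and Dbp (0.10). With lamotrigine, the sign against DMSO of Per2 and Cry2 turned with spike-in scaling (0.02 and 0.11), that of Per3 with normexp (-0.01), that of Nr1d1 with normexp (-0.04), that of Nr1d2 with spike-in scaling (0.08) and the mean of its probes (0.04), and that of Dbp in 4 alternatives, up to 0.13. No paired analysis was possible because each treatment has 1 array. Signal over background limits Per2, Per3, Cry1, Bhlhe41, Ciart and Fbxl21 most, where the technical SD is widest.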

Other observations

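Of 6 genes listed as markers of suprachiasmatic neurons, 2 were detected on all 3 arrays, and the cells behind their signal were not determined. Vip, the peptide that couples pacemaker neurons, had a scaled signal of 29.8 with valproate, 28.1 with lamotrigine and 27.0 with DMSO. Prok2, a secreted output signal of the pacemaker, had 23.0 with valproate, 11.9 with lamotrigine and 24.0 with DMSO. It was 2.02-fold lower with lamotrigine than with DMSO, past the call that 0.16% of all genes reached, and its technical SD at this weak signal was 0.24 in log2. In alternatives chosen after seeing the data, the log2 difference of -1.02 missed the call with spike-in scaling (-0.82) and with normexp background correction (-0.50). Its promoter window holds the E-box CACGTG, 135 bases before the start. Lhx1 was detected with lamotrigine only.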
